A study of Mus musculus with 8 samples.

Results

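The lineage transcription factors Nkx2-1, Foxa1, Foxa2, Foxa3, Hnf4a, Gata6, Cebpa, Sox9 and Foxp2 were followed through H3K4me3 profiles of mouse lung tumor cells. Every listed peak assigned to 1 of these 9 genes was taken, which gave 23 of the 35486 peaks in the deposited table and 8 of its 20871 genes. Foxa3 had no listed peak. The cells came from autochthonous lung tumors, that is, tumors raised in the lung of the mouse itself, of 2 genotypes. KL mice carried KrasLSL-G12D/+ and Lkb1fl/fl, and KLG4m/m mice carried Gpx4m/m in addition, an allele from which DreERT2 removes exons 5 to 7 of Gpx4 once tamoxifen is given. DreERT2 stood behind the CAG promoter and a stop cassette that Cre removes, so that only cells reached by Cre, and their progeny, could lose Gpx4. Both groups were on the C57BL/6 background, received intranasal Ad-Cre at 8 to 10 weeks of age, were given tamoxifen for 2 weeks from week 5, and rested for 3 weeks, so the cells were taken 10 weeks after Ad-Cre. Neither the labels nor the methods tie Ad-Cre to 1 lung cell type, so the tumors may start from several. The CD45-CD31-EpCAM+ cells were sorted, 1000000 per mouse, and each H3K4me3 library is taken here as 1 mouse. The libraries of 2 KL mice (replicates 1 and 2) and 2 KLG4m/m mice (replicates 3 and 4) were compared. The paper's figure legend gives 2 mice per group, while its methods name 3 mice in total.

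H3K4me3 is a methyl mark on histone H3 that lies at the promoters of active or poised genes. The assay, called CUT&Tag in the labels, tethers a nuclease to an antibody bound to the mark, so that reads pile up where the mark lies. NKX2-1 is the homeobox factor that defines the lung within the foregut endoderm and drives surfactant genes. FOXA1, FOXA2 and FOXA3 are forkhead pioneer factors of endoderm that open chromatin and bind together with NKX2-1 in lung and with HNF4A in liver and gut. HNF4A is a nuclear receptor of liver, gut and stomach epithelium that is low in normal lung, and loss of NKX2-1 in lung tumors is known to free FOXA factors for gastric and hepatic genes. GATA6, a zinc finger factor, and CEBPA, a leucine zipper factor, act in alveolar type 2 cell maturation. SOX9 marks the distal tips of the branching lung bud, and FOXP2 is a forkhead repressor of the developing distal lung epithelium.

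Each library held 3244495 to 3463731 reads in listed peaks. All values below are reads per peak or CPM, that is, TMM-scaled counts per 1000000 reads in listed peaks, and nearly all peaks are 400 bp wide, so levels can be set side by side between peaks. Libraries of 1 group were close to each other, with a chi-square per degree of freedom of 1.13 for KL and 1.23 for KLG4m/m against 2.37 to 2.80 between groups. The listed peak of Gpx4, the targeted gene, held 242 and 236 reads in KL and 304 and 301 in KLG4m/m, a log2 fold change of 0.40 (SE 0.0941, edgeR adjusted p = 0.00854). This peak lies at the Gpx4 promoter, outside the deleted exons, so it does not check the deletion. Epcam, the gene of the sorting marker, carried H3K4me3 in all 4 libraries, at 182 and 200 reads against 115 and 94 for KL and KLG4m/m. The genes of the markers sorted against carried it too, Ptprc (CD45) at 54.5 to 70.04 CPM and Pecam1 (CD31) at 62.3 to 81.7 CPM.

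Because H3K4me3 is known to gather at promoters rich in CpG dinucleotides, the RefSeq promoter windows (250 bases before to 50 bases after a start, GRCm38.p6) of the factors that had both a window and a listed peak are shown here, 1 for each factor, 5′ to 3′ on the strand of the gene, with every CG in capitals. Windows matched 6 of the 9 factors. Foxa2 has 3 windows and Hnf4a has 2.

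Hnf4a, upstream start, chr2:163506607-163506906, plus strand: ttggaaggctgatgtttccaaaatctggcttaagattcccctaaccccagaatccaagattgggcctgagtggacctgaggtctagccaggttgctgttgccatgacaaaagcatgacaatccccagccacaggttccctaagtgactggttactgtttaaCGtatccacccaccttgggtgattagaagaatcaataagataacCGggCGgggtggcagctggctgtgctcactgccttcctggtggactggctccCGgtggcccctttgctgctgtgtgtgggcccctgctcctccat
Foxa2, second start, chr2:148045899-148046198, minus strand: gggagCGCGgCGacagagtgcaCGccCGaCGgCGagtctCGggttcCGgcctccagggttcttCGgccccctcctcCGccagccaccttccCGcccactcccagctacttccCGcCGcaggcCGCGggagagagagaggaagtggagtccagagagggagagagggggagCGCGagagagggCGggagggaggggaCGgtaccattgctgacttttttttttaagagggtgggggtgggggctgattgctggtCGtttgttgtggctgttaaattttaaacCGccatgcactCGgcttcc
Foxa1, chr12:57546062-57546361, minus strand: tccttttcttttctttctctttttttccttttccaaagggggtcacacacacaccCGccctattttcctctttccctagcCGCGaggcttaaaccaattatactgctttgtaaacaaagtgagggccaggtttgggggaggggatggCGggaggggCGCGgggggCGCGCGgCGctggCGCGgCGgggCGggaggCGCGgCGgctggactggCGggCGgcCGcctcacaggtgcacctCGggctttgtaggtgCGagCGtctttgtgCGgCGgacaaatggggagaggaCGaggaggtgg
Nkx2-1, chr12:56536859-56537158, minus strand: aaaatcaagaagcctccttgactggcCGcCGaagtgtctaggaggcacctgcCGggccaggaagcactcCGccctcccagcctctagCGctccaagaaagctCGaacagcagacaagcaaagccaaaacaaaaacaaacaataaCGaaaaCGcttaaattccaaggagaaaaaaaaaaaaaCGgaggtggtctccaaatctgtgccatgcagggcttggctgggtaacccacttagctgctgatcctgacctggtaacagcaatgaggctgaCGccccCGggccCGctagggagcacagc
Cebpa, chr7:35119043-35119342, plus strand: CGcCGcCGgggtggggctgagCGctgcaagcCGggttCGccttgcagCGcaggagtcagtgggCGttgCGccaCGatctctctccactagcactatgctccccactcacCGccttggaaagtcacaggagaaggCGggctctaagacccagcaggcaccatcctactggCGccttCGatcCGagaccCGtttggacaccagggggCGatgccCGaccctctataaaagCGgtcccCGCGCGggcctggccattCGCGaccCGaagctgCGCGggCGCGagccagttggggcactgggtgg

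The Hnf4a window held 4 CG dinucleotides, Nkx2-1 12, the second Foxa2 start 23, Foxa1 26 and Cebpa 29, and the Foxa3 window held 22. A CG was present in 94.6% of the 32851 RefSeq windows, with a median of 7. Short motifs were searched on both strands as a description. TGTTTAC, the FOXA motif, stood in 3.65% of all windows and in 1 of the 9 windows of these factors, that of Foxa1. CTTGAG, a core bound by NKX2 factors, stood in 15.9% of all windows and in those of Foxa2 (the third start) and Foxa3, and AGATAA, the GATA motif, in 11.2% of all windows and in those of Foxa2 (the third start) and Hnf4a (upstream start). The HNF4 motif CAAAGTCCA (0.475% of all windows) and the C/EBP motif TTGCGCAA (0.183%) had no match in the 9 windows.

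The start-site peak of each factor, that is, the peak assigned to it that lies nearest to a start site, ranged in mean level over the 4 libraries from 9.58 CPM at Hnf4a to 81.7 CPM at Cebpa. Between them stood Foxp2 at 28.7, Gata6 at 26.1, Foxa1 at 23.6, Nkx2-1 at 19.7, Foxa2 at 18.7 and Sox9 at 14.9 CPM. Only Cebpa stood clear of its neighbour in this order, with 72.9 to 88.3 CPM against 23.5 to 33.4 CPM at Foxp2, and every other pair of neighbours overlapped in range across the 4 libraries. Of the 12 peaks of these factors within 1 kb of a start site, 11 lay under the median of all 17073 such peaks (41.2 CPM), and their own median was 18.4 CPM. Across the 9027 genes with 1 RefSeq window and a peak within 1 kb, the median level was 12.6 CPM in the 1203 genes with 0 to 5 CG and 63.3 CPM in the 2806 genes with 16 to 25 CG. Hnf4a, with 4 CG and 9.58 CPM, lay within the quartiles of the first of these classes (6.40 to 27.7 CPM), whereas Foxa1 and Foxa2 (second start) stood lower than the quartiles of genes with similar windows, 32.2 to 75.1 CPM for 26 CG or more and 38.9 to 83.2 CPM for 16 to 25 CG. Cebpa, with 29 CG and 81.7 CPM, stood above the quartiles of its class. Nkx2-1, with 12 CG and 19.7 CPM, lay within those for 6 to 15 CG, 14.2 to 67.0 CPM. The other Foxa2 windows held 12 and 13 CG, and its 18.7 CPM lay within the quartiles of that class. The classes hold only genes with 1 window, unlike Foxa2 and Hnf4a. The Foxa1 and Nkx2-1 levels are those of peaks at starts of predicted transcripts, and the windows were not matched to these starts. The peaks nearest their curated starts, at 18.0 CPM for Foxa1 and 17.9 CPM for Nkx2-1, stood the same way to the quartiles. These are levels across genes, which are not independent replicates, and all share the 4 libraries.

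**Figure D1:**
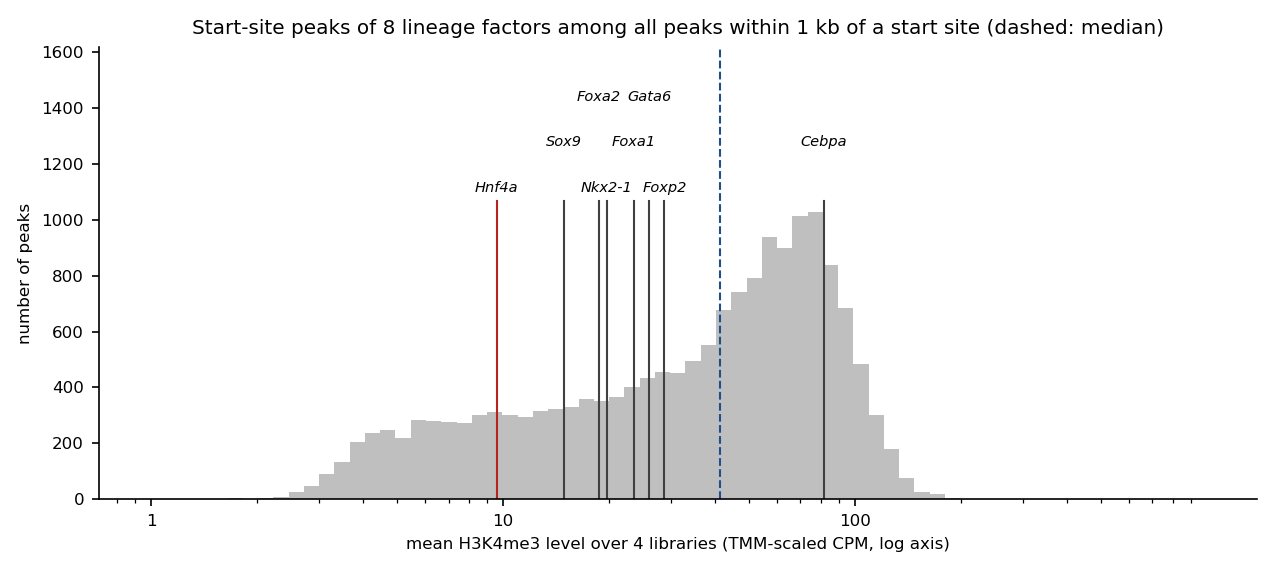
Histogram of the mean H3K4me3 level (TMM-scaled CPM over 4 libraries, log axis) of all 17073 peaks within 1 kb of a start site, with the start-site peaks of the 8 measured factors as vertical lines (red where KLG4m/m was lower past the threshold, dark grey otherwise) and the median of all such peaks, 41.2 CPM, dashed. By the peaks assigned to them, Cebpa at 81.7 CPM is the 1 factor to the right of the median, and Hnf4a at 9.58 CPM is the leftmost.

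In KLG4m/m against KL tumor cells, H3K4me3 fell at Foxa2, Hnf4a and Foxp2, and at 1 of the 6 peaks of Foxa1, and did not pass the test at Nkx2-1, Gata6, Cebpa or Sox9. With edgeR's quasi-likelihood test adjusted over all 35486 peaks, 5 of the 23 peaks were lower and 0 were higher, where 5.52% of all peaks were lower and 3.1% higher (8.62% in either direction). Within 1 kb of a start site 4 of the 12 peaks were lower and 0 higher, against 8.43% and 2.89% of all such peaks, and beyond 1 kb 1 of 11 was lower, against 2.82%. The share within 1 kb varied with level, with 12.8% lower at 10 to 40 CPM and 5.75% lower under 10 CPM. Among genes with 1 RefSeq window, 15.9% of those with 26 CG or more were lower, against 5.07% of those with 0 to 5 CG. At the start-site peak itself 1 of the 8 factors, Hnf4a, was lower, against 7.26% of all genes. Summed per gene, 3 of 8 factors were lower and 0 higher, against 9.63% and 5.38% of all genes. At an unadjusted p under 0.05, 8 of the 23 peaks were lower and 0 higher, where 13.5% and 11.2% of all peaks were, and 5 of the 8 genes were lower and 0 higher, where 16.4% and 12.4% of all genes were. DESeq2 and limma also called 0 higher. The log2 fold change was below 0 at 18 of the 23 peaks, with a median of -0.28 against 0.0077 over all peaks. In 14 peaks both KLG4m/m libraries lay below both KL libraries and in 1 peak above them, where 26.6% and 27.5% of all peaks did so. Of the summed genes, 6 were lower without overlap, against 28.7% of all genes. In these bulk samples, fewer cells of a type and less mark per cell cannot be told apart.

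**Figure D2:**
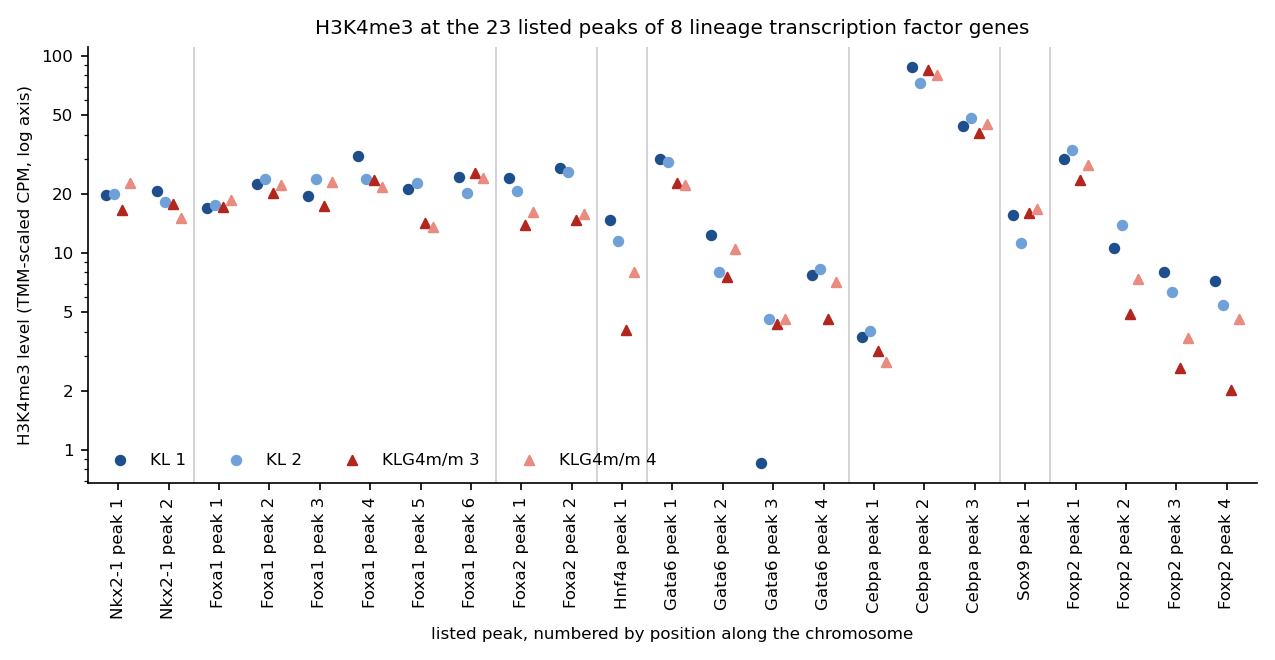
H3K4me3 level (TMM-scaled CPM, log axis) of each of the 23 listed peaks in the 4 libraries, KL as blue circles and KLG4m/m as red triangles, with peaks numbered by position along the chromosome within each gene. Both triangles lie under both circles at Foxa2, Hnf4a and all 4 Foxp2 peaks, the groups overlap at the main Cebpa peaks, and the KL 1 library stands alone at Gata6 peak 3.

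The calls depended on which library was left out and on the tool. Without KL replicate 1 edgeR called 1459 peaks lower and 702 higher over the whole table, and without KL replicate 2 it called 998 and 484, of which 2 lower and 0 higher were peaks of these factors in each fit. Without KLG4m/m replicate 3, or without replicate 4, edgeR called 0 of all 35486 peaks (5486 and 5178 at an unadjusted p under 0.05) and 0 genes, so none of the calls here was kept in those fits. DESeq2 was more sparing over the whole table, with 244 lower and 33 higher peaks against 1960 and 1099, and called 0 of the 18 peaks of these factors for which it gave an adjusted p. Summed per gene it called 1 factor, Foxa2.

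Markers of some cell types also differed between the groups, while other marker lists had few or no calls. For the counts that follow, 9.63% of all genes were lower and 5.38% higher. The 9 measured leukocyte markers summed to 278 and 280 CPM in KL and 371 and 359 in KLG4m/m, with 5 higher, 0 lower and Ptprc the most abundant, while Cd79a had no listed peak. The 7 epithelial markers summed to 391 and 396 against 341 and 343 CPM. Of these, Epcam (log2 fold change -0.82, edgeR adjusted p = 1.56e-06) and Cdh1 (-0.38, 0.00396) were lower. Krt8 (-0.28), Elf3 (-0.14), Krt18 (0.07), Krt19 (0.11) and Cldn4 (-0.00) did not pass. The 6 alveolar type 2 markers, all of them also on the list of NKX2-1 targets described later, summed to 227 and 238 against 169 and 177 CPM, with 4 lower, while Sftpc and Slc34a2 had no listed peak.

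The 2 measured club and airway markers summed to 83.0 and 84.4 CPM in KL against 90.4 and 85.4 in KLG4m/m, with 0 called. The 6 endothelial markers summed to 252 and 281 against 281 and 287 CPM, with 1 lower and 1 higher, and the 4 fibroblast markers to 84.5 and 93.3 against 89.2 and 93.1 CPM, with 1 higher. The part of these shifts in the lower values at Foxa2, Hnf4a, Foxp2 and the surfactant genes was not tested.

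H3K4me3 fell at Foxa2, at its upstream peak and in the sum of its 2 peaks. The peak that ends 74 bp upstream of its second start (chr2:147887942-147888342, in the positions of the deposited table) held 84 and 72 reads in KL and 48 and 52 in KLG4m/m. The peak 1583 bp upstream of its first start (chr2:147890472-147890872) held 94 and 90 reads in KL and 51 in each KLG4m/m library. At both, all KLG4m/m values lay below all KL values. The upstream peak was at 57.7% of its KL level (26.5 ± 0.791 against 15.3 ± 0.707 CPM, SD, n = 2 per group) with a log2 fold change of -0.79 (SE 0.176, edgeR adjusted p = 0.00539). The start-site peak had a log2 fold change of -0.58 (SE 0.187) and missed the threshold (edgeR adjusted p = 0.0507). It passed with edgeR when scaled by total reads (0.0476) or among peaks of at least 10 CPM (0.0303). It did not pass with DESeq2 (0.576), limma (0.0540 and 0.0512) or limma after quantile normalization (0.110). Over the fits that lacked 1 library, its change ranged from -0.69 to -0.47. Summed over both peaks, Foxa2 went from 49.0 ± 3.32 to 30.3 ± 2.12 CPM, a log2 fold change of -0.70 (SE 0.138, edgeR adjusted p = 7.86e-05), and DESeq2 gave 0.0377. Over the 4 fits that lacked 1 library, the summed change stayed between -0.77 and -0.62, and it missed the threshold without KLG4m/m replicate 3 (-0.62) or 4 (-0.77).

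Hnf4a, a factor of gut and liver, had the largest change among the 8 summed genes. Its only listed peak, at the upstream of its 2 starts (chr2:163348634-163349034), held 51 and 40 reads in KL and 14 and 26 in KLG4m/m. The groups did not overlap, but the KLG4m/m pair were themselves far apart. The level fell from 13.1 ± 2.23 to 6.06 ± 2.82 CPM, 46.2% of KL, with a log2 fold change of -1.12 (SE 0.286, 95% interval -1.71 to -0.53, edgeR adjusted p = 0.0143). The peak passed with limma (adjusted p = 0.0169 and 0.0135), but not after quantile normalization (0.0735) or with DESeq2 (0.324). In the fit by gene, DESeq2 gave an adjusted p of 0.186 and limma after quantile normalization 0.0243. The upstream start lies 40298 bp before the other in RefSeq, and no listed peak was assigned to the downstream start. The change missed the threshold without KL replicate 1 (-0.94), without KLG4m/m replicate 3 (-0.70) and without KLG4m/m replicate 4 (-1.68). This promoter is the lowest of the 8, at 14 to 51 reads per library, so counting error is a large part of its value.

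Foxp2, the distal lung repressor, carried 4 peaks over 421 kb, and all 4 were lower in both KLG4m/m libraries than in both KL libraries. The peak at its upstream start (chr6:14900428-14900828) held 105 and 116 reads in KL and 81 and 90 in KLG4m/m, a log2 fold change of -0.31 (SE 0.154, edgeR adjusted p = 0.21). A pair of peaks flanking internal starts stood lower. The one 926 bp before an internal start (chr6:15184179-15184579) held 37 and 48 reads in KL and 17 and 24 in KLG4m/m, and the one 942 bp past another (chr6:15186447-15186847) held 28 and 22 against 9 and 12. They were at 50.5% and 44.0% of their KL level, with log2 fold changes of -0.99 (SE 0.276, edgeR adjusted p = 0.0247) and -1.18 (SE 0.362, 0.0396). The fourth peak, in intron 5 and 124 kb from the nearest start, held 25 and 19 reads against 7 and 15 (log2 fold change -0.93, edgeR adjusted p = 0.136).

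Summed over its 4 peaks, Foxp2 went from 57.6 ± 1.97 to 38.3 ± 7.33 CPM, a log2 fold change of -0.59 (SE 0.127, edgeR adjusted p = 2.80e-04). DESeq2 gave the sum an adjusted p of 0.0754. The sum missed the threshold without KLG4m/m replicate 3 (-0.41) and without replicate 4 (-0.80). The first internal peak was also lost without KL replicate 2 (-0.79), and the second without KL replicate 1 (-1.002) or 2 (-1.35).

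Foxa1, the second forkhead pioneer factor, had 6 peaks over 11.6 kb, a number that 2.40% of genes with at least 1 peak reach. The peak 201 bp past the start of its curated RefSeq transcript (chr12:57592296-57592696) held 74 and 79 reads in KL and 49 and 44 in KLG4m/m, with no overlap. It fell from 22.02 ± 1.04 to 13.9 ± 0.415 CPM, a log2 fold change of -0.66 (SE 0.187, edgeR adjusted p = 0.0268). It passed with limma (adjusted p = 0.0282 and 0.0263), but not after quantile normalization (0.0663) or with DESeq2 (0.474). The peak 1 step upstream, at a second start (chr12:57593305-57593705), held 85 and 70 reads in KL and 88 and 78 in KLG4m/m, which overlapped (log2 fold change 0.16, 95% interval -0.19 to 0.50). The other 4 peaks, up to 10.4 kb downstream of the start, had log2 fold changes of -0.28 to 0.05 and none passed. Summed, Foxa1 changed by -0.15 (SE 0.0782, edgeR adjusted p = 0.173), from 134 ± 2.80 to 121 ± 3.17 CPM, and it passed with limma after quantile normalization (-0.22, adjusted p = 0.0493). The fall at the 201 bp peak missed the threshold without KL replicate 1 (-0.71) or 2 (-0.61) and without KLG4m/m replicate 3 (-0.69) or 4 (-0.63).

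Whether peaks of 1 gene changed by different amounts was tested with edgeR's diffSpliceDGE, which called 9.33% of the 7617 genes with at least 2 peaks. Of the 6 factors with at least 2 peaks it called 0. At an unadjusted p under 0.05 it found 1, Foxp2 (unadjusted 0.0463). The edgeR adjusted p was 0.193 for Foxp2 and 0.205 for Foxa1, the next in order. No other tool was run for this question. So the steeper values at the internal Foxp2 peaks and at the 201 bp Foxa1 peak were not shown to differ from the rest of their genes, and for the pair of Foxa2 peaks the edgeR adjusted p was 0.674.

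**Figure D3:**
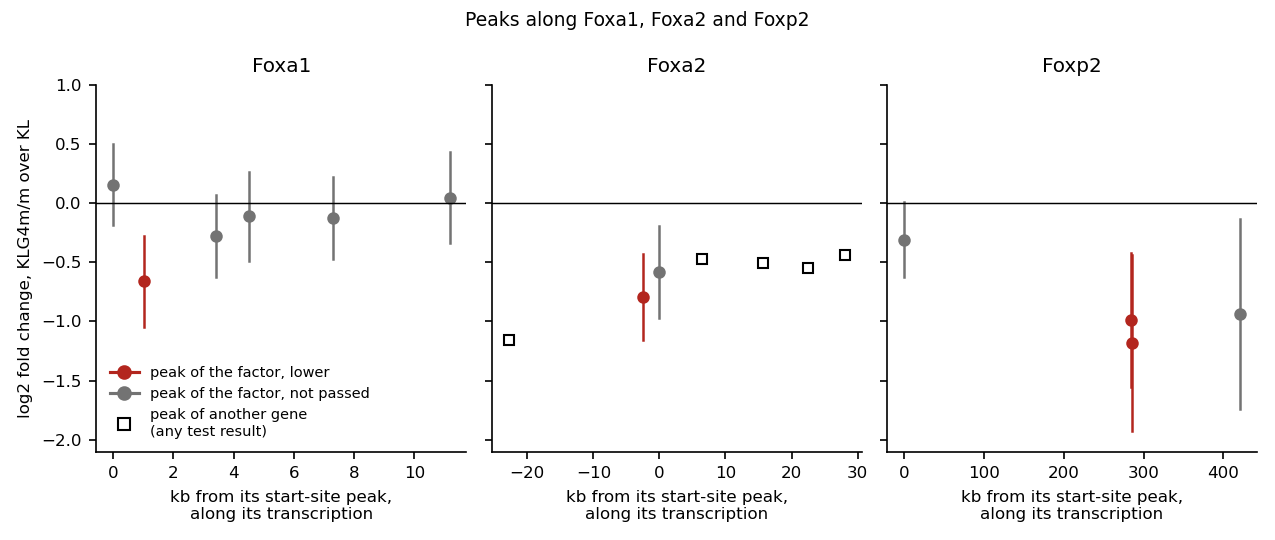
Log2 fold change of H3K4me3 (KLG4m/m over KL) with 95% intervals at each listed peak of Foxa1, Foxa2 and Foxp2 against the distance in kb from the start-site peak, counted along transcription, with red for peaks past the threshold, grey for the rest and open squares for peaks of other genes within 100 kb of Foxa2. At Foxa2 all 7 points lie below 0, and at Foxa1 the peak next to the start stands lower, at -0.66, than the 5 others.

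Nkx2-1, the lung identity factor, had 2 peaks. The one at the start of a predicted transcript (chr12:56582839-56583239) held 69 reads in each KL library and 57 and 73 in KLG4m/m, so the KL values lay between the KLG4m/m values. The one 576 bp upstream of the other start (chr12:56584146-56584546) held 72 and 63 reads in KL and 61 and 49 in KLG4m/m. The start-site peak changed by -0.03 on the log2 scale (SE 0.187, edgeR adjusted p = 0.948) and the upstream peak by -0.24 (SE 0.189, 0.464). The sum changed by -0.13 (95% interval -0.41 to 0.15, edgeR adjusted p = 0.576), from 39.3 ± 1.88 to 35.96 ± 2.36 CPM. A fall as large as that of Foxa2 lies outside this interval, although the 2 genes have peaks of about the same level and read number. The difference between the genes was not tested.

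Cebpa, needed for alveolar type 2 maturation, had the highest level of the 8 factors and the narrowest interval. Its start-site peak (chr7:34818215-34818615) held 307 and 253 reads in KL and 294 and 259 in KLG4m/m, and the peak within the gene (chr7:34819830-34820230) 153 and 168 against 141 and 147. The third peak, 11.2 kb upstream, held 9 to 14 reads per library. The sum was 131 ± 7.89 CPM in KL and 129 ± 1.14 CPM in KLG4m/m, with a log2 fold change of -0.02 (95% interval -0.18 to 0.13, edgeR adjusted p = 0.887).

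Gata6 had 4 peaks over 185 kb. The main one, 918 bp past a start, held 105 and 101 reads in KL and 78 and 72 in KLG4m/m. The groups did not overlap there, and the level went from 29.6 ± 0.788 to 22.5 ± 0.232 CPM (log2 fold change -0.40, SE 0.156, edgeR adjusted p = 0.11, unadjusted 0.0165). The peak of the antisense gene Gata6os, 1.49 kb from it, held 185 and 205 against 176 and 185 reads (log2 fold change -0.05, edgeR adjusted p = 0.814). Its mean of 55.1 CPM was above that of the main Gata6 peak and above the median of peaks within 1 kb of a start site. The level and change given for Gata6 thus rest on which gene each peak was assigned to. Reads of this mark have no strand, so close or antisense neighbours share a promoter region that the counts cannot divide. The other 3 Gata6 peaks held 3 to 43 reads, and at 1 of them, 168 kb from the start, KL replicate 1 had 3 reads where the other 3 libraries had 15 or 16. Summed, Gata6 had a log2 fold change of -0.28 (SE 0.127, edgeR adjusted p = 0.125).

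Sox9, the distal tip factor, was the 1 factor with a summed value above 0. Its peak (chr11:112673351-112673751) held 54 and 39 reads in KL and 55 and 54 in KLG4m/m, and once scaled both KLG4m/m values lay just above KL replicate 1. The log2 fold change was 0.29 (SE 0.21, 95% interval -0.15 to 0.72, edgeR adjusted p = 0.425).

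**Figure D4:**
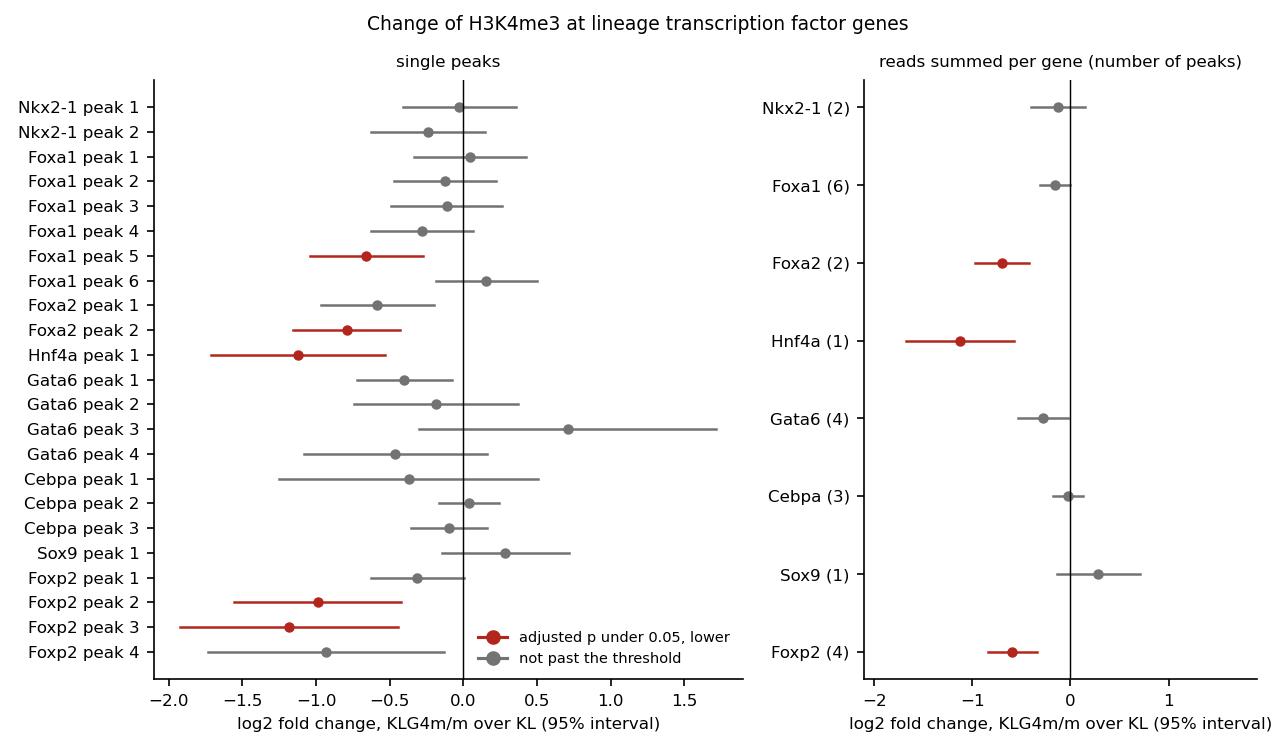
Log2 fold change (KLG4m/m over KL) with 95% interval for each of the 23 peaks (left) and for the reads summed per gene (right, number of peaks in parentheses), red where the edgeR adjusted p is under 0.05. Hnf4a (-1.13 summed), Foxa2 (-0.70) and Foxp2 (-0.59) are red on the right, and Cebpa (-0.02) has the narrowest interval.

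The surroundings of the factors were read from the 36 listed peaks of other genes within 100 kb of a peak of these factors. Of them, edgeR called 4 lower and 0 higher, where 5.52% of all peaks were lower and 3.1% higher. DESeq2 called 0 lower and limma 4 (1 after quantile normalization), with 0 higher by either tool. The median log2 fold change was -0.40 against 0.0077 over all peaks. Next to Foxa2, the 4 peaks of the noncoding gene 9030622O22Rik had log2 fold changes of -0.55 to -0.44 and none passed alone. Their sum held 208 and 196 reads in KL and 129 and 146 in KLG4m/m, with no overlap, a log2 fold change of -0.50 (SE 0.124, edgeR adjusted p = 0.00198), a gene singled out after its values were seen. On the other side of Foxa2, 19.9 kb away, the peak of Gm14108 (25 and 24 reads against 10 and 11) changed by -1.16 (SE 0.356, edgeR adjusted p = 0.0413). All 7 peaks at Foxa2 and within 100 kb of it were thus below 0, where 49.0% of all peaks were. Of the 7, only the upstream Foxa2 peak and the Gm14108 peak passed.

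Near Cebpa the promoter peak of Cebpg, a related leucine zipper gene 50.7 kb away, held 238 and 240 reads in KL and 195 and 143 in KLG4m/m (log2 fold change -0.44, edgeR adjusted p = 0.016), although the 2 KLG4m/m libraries differed from each other by more than KL did. The promoter peak of Lrp3, 94.3 kb from Cebpa, held 27 and 44 against 13 and 12 reads (-1.44, 0.00677). Near Nkx2-1 a peak assigned to the homeobox gene Nkx2-9, 99.0 kb away, held 22 and 14 against 7 and 3 reads (-1.77, 0.026). Gm14108 passed in none of the fits that lacked 1 library (-1.27 to -1.05), and beside the KLG4m/m libraries Cebpg (-0.44) and Lrp3 (-1.05) needed KL replicate 2 and Nkx2-9 (-1.41) needed KL replicate 1. No listed peak of another gene lay within 100 kb of Sox9 or Foxp2.

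Other lineage transcription factors of lung and endoderm were read from a list of 30, of which 27 had a listed peak. By gene, 4 were lower and 3 higher, against 9.63% and 5.38% of all genes, with a median log2 fold change of -0.14. Nfib, a nuclear factor of lung maturation, held 169 and 178 reads in KL and 94 and 87 in KLG4m/m, and fell by 0.88 (SE 0.141, edgeR adjusted p = 7.19e-07, DESeq2 0.00386). Etv5, an ETS factor that maintains alveolar type 2 cells, fell from 91.6 ± 6.82 to 67.7 ± 4.56 CPM (-0.43, edgeR adjusted p = 5.74e-04). Foxf1, a forkhead factor of lung mesenchyme and endothelium and not of epithelium, fell by 0.45 (edgeR adjusted p = 0.0293) and Cebpg by 0.43 (0.0022). None of these genes overlapped between the groups.

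Sox2, a factor of airway and squamous cells, rose from 23.9 ± 5.27 to 37.7 ± 2.01 CPM, a log2 fold change of 0.66 (SE 0.156, edgeR adjusted p = 0.00117). It held 70 and 96 against 125 and 127 reads. Of its 3 peaks, 1 passed alone, with 10 and 14 against 41 and 35 reads, and it lies 7.18 kb past the start within an intron of Sox2ot. The peak at the Sox2 start held 21 and 26 against 27 and 39 reads and did not pass (edgeR adjusted p = 0.241). Cebpb, an acute-phase relative of Cebpa, rose by 0.30 (edgeR adjusted p = 0.0368), with 227 and 199 against 280 and 226 reads, so its raw counts overlapped and its scaled values did not. Id2, of the distal lung tip, was the third to rise and is named after its value was seen (0.28, edgeR adjusted p = 0.00109). Leaving out KL replicate 1 cost Sox2 its call (0.45), and leaving out KL replicate 2 cost that of Cebpb (0.22), Etv5 (-0.35) and Foxf1 (-0.32).

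The lung genes downstream of these factors were read from a list of 16 surfactant, alveolar and airway genes known as NKX2-1 targets, of which 12 had a listed peak and 1, Hopx, is also on the list above. Of the 12, edgeR called 8 lower and 0 higher, limma also 8 (7 with quantile normalization) and DESeq2 only 2, with 0 higher by either tool. Over all genes edgeR called 9.63% lower and 5.38% higher. At an unadjusted p under 0.05, 9 were lower and 0 higher, against 16.4% and 12.4% of all genes. The median log2 fold change was -0.61 against 0.0023 over all genes. Lamp3, of the lamellar bodies that store surfactant, held 26 and 23 reads in KL and 4 in each KLG4m/m library (log2 fold change -2.52, SE 0.479, edgeR adjusted p = 3.36e-05). Sftpa1, surfactant protein A, held 84 and 93 against 39 and 34 reads (-1.22, SE 0.201, 1.56e-06), and DESeq2 gave 0.00862. Neither gene's groups overlapped.

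Sftpd (-0.998, edgeR adjusted p = 0.00307) and Sftpb (-0.65, 2.84e-04), surfactant proteins D and B, were lower as well. Cldn18, a tight junction gene of alveolar epithelium, fell by 0.74 (7.46e-05) and Aqp5, a water channel of alveolar type 1 cells, by 0.74 (0.00558). Abca3, the lipid pump of lamellar bodies, had a log2 fold change of -0.23 (0.0679), and Napsa, an aspartic protease of type 2 cells, of 0.03 (0.933). Scgb1a1, the secretory protein of club cells, stood at 0.07 (0.805). The values in parentheses are edgeR adjusted p-values. Without KL replicate 1, Aqp5 missed the threshold (-0.62). Thus several surfactant genes were lower while the mark at Nkx2-1 and Cebpa did not pass the test.

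Stomach, gut and liver genes known as targets of HNF4A or FOXA were read from a list of 22, of which only 9 had a listed peak. edgeR called 0 lower and 0 higher, against 9.63% and 5.38% of all genes. At an unadjusted p under 0.05, 2 were lower and 0 higher, against 16.4% and 12.4% of all genes. DESeq2 and limma also called 0. The median log2 fold change was -0.20. Apoa1, an apolipoprotein gene, came closest (-0.59, edgeR adjusted p = 0.0513), and it and Abca3, Napsa and Scgb1a1 above were named after their values were seen.

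**Figure D5:**
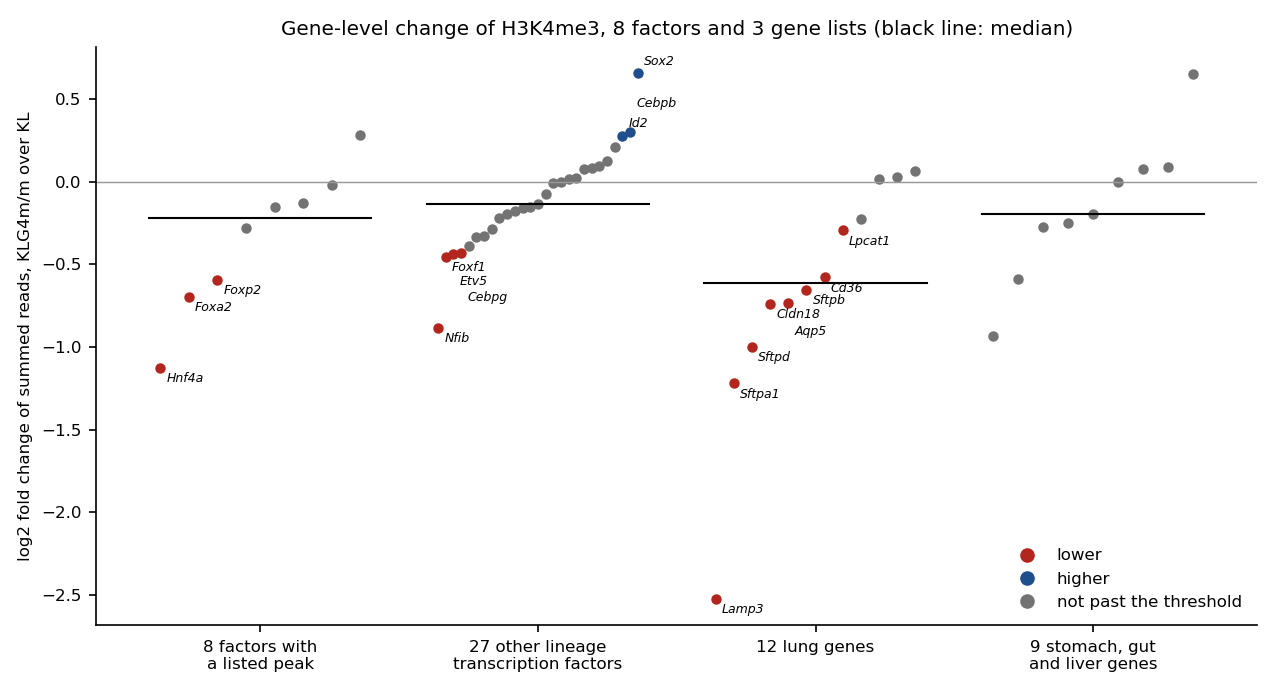
Log2 fold change (KLG4m/m over KL) of the reads summed per gene for the 8 factors and the measured genes of 3 lists, sorted by value within each, with the median as a black line and red or blue points for genes past the threshold. The lung genes have the lowest median, -0.61, and 8 of 12 are red, while the other lineage factors split into 4 lower and 3 higher.

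For each factor, the gene of the same number of peaks whose summed log2 level over the 4 libraries was nearest (root mean square difference) was also named. It was Gm42458 for Nkx2-1 (0.0558), Atg4c for Foxa1 (0.0418), Cracdl for Foxa2 (0.0595), Gm34802 for Hnf4a (0.208), Gm20150 for Gata6 (0.0501), Morc3 for Cebpa (0.0187) and Gm39575 for Sox9 (0.057). For Foxp2 it was 9030622O22Rik (0.106), the neighbour of Foxa2, out of 723 other genes with 4 peaks. With 4 libraries, such likeness describes level and direction only.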

How the data were processed

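H3K4me3 was profiled in the tumor cells of 2 KL and 2 KLG4m/m mice. The authors trimmed reads with Trim Galore 0.6.10, mapped them with BWA 0.7.15, removed reads under a mapping quality of 30 and duplicates (Picard 2.17.3), called peaks with MACS2 2.2.7.1 and annotated them (HOMER 4.11.1), per the labels and the methods. They deposited 1 table with whole-number read counts per peak and library, which are not normalized. It also holds CPM, the signed distance to a start site, and the authors' own log2 fold change, F statistic, p-value and adjusted p-value, which were not used. Its scaffold names are those of GRCm39, whereas the promoter windows are GRCm38.p6, so the positions were not set against each other, and no peak sequence was read. The H3K27ac libraries were not analysed here.

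The counts were tested with edgeR 4.0.16 (TMM, glmQLFit and glmQLFTest, no filter on low peaks, no covariate, two-sided) in R 4.3.3, over all 35486 peaks, or over 20871 genes after summing the reads of each gene's peaks, with Benjamini-Hochberg adjustment and a threshold of 0.05. The common dispersion was 0.00133. SE values are the log2 fold change divided by the square root of F. Alternatives were DESeq2 1.42.0, scaling by total reads, limma 3.58.1 on log2(CPM + 1) or log2(CPM + 4), quantile normalization, peaks of at least 10 CPM, other choices of peaks per gene, a 50 kb window, and leaving out each library. On simulated counts for this comparison over 35486 peaks, with 200 peaks changed 2-fold, 82.5% were recovered when their mean was 10 to 40 CPM and 21.0% at 3 to 10 CPM. The simulated counts used the common dispersion for every peak, without the spread of dispersion between real peaks. Changes smaller than 2-fold were not simulated, so these shares do not give the power for them. Of the 23 peaks, 8 lie under 10 CPM.

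The text names all 9 factors with their peaks, Gpx4, up to 6 called genes per list by absolute change, called neighbours within 100 kb, marker sums with their most abundant genes, and the nearest gene by level. The factors and lists were chosen with earlier results of these data known. The libraries of 1 group are taken as separate animals, 2 per group, so the spread rests on few samples.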

Additional observations from a re-analysis of the deposited data

How the results depend on the processing

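With 2 mice per group and 3 to 307 reads per peak and library, small changes were beyond reach, most of all at the 8 peaks under 10 CPM. No paired analysis was possible because the KL libraries are numbered 1 and 2 and the KLG4m/m libraries 3 and 4, so the groups share no replicate number. The 5 lower peaks became 0 with DESeq2, 1 with quantile normalization, 3 among the 15 peaks of at least 10 CPM, and 0 to 2 with a library left out. The 1 lower start-site peak became 0 with DESeq2 or quantile normalization, 2 when scaled by total reads, and 0 to 1 with a library left out. The 3 lower genes became 4 with quantile normalization, where Foxa1 summed also passed (-0.22, limma adjusted p = 0.0493), 1 with DESeq2, 1 from peaks beyond 1 kb alone, and 0 to 3 with a library left out. For the lists, DESeq2 called 1 lower and 0 higher of the other factors (0 to 4 lower and 0 to 2 higher with a library left out) and 2 lower of the lung genes (0 to 6), and peaks of at least 10 CPM gave 1 lower gut and liver gene. The 4 lower neighbouring peaks became 1 within 50 kb, 0 with DESeq2, 1 with quantile normalization, 1 at 10 CPM or more, and 0 to 3 with a library left out. The 0 calls without a KLG4m/m library held for the whole table, where the smallest adjusted p of any peak was 0.307 and 0.337, while the fits without a KL library called 1459 and 998 lower peaks. The cause was not tested for any of these changes. Of the single values, 7 changed sign, in 11 fits in all, and none of the 7 was a called one. Over the fits with 1 library left out, they ranged from -0.26 to 0.18 at Nkx2-1 peak 1, -0.011 to 0.10 at Foxa1 peak 1, -0.32 to 0.072 at Foxa1 peak 3, -0.46 to 0.16 at Gata6 peak 2, -0.036 to 2.33 at Gata6 peak 3, -0.093 to 0.18 at Cebpa peak 2 and -0.073 to 0.045 at Cebpa summed, which was 0.048 from peaks within 1 kb alone. Foxa2, Hnf4a and Foxp2, summed, stayed below 0 under every alternative run. No Nkx2-1, Cebpa, Gata6 or Sox9 value passed the threshold under any of them.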
